A study of Mus musculus with 36 samples.

Results

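The immediate early genes described here are 10 of the 24781 genes of the deposited table: *Fos*, *Fosb*, *Jun*, *Junb*, *Jund*, *Atf3*, *Egr1*, *Nr4a1*, *Ier2* and *Dusp1*. They were taken by gene name, and all 10 were found. Immediate early genes are switched on within minutes of a stimulus by factors already present in the cell, without new protein synthesis, and many of them encode transcription factors that act on later genes. FOS, FOSB, JUN, JUNB, JUND and ATF3 belong to the AP-1 group of leucine zipper proteins, which bind DNA as pairs. EGR1 is a zinc finger factor, NR4A1 an orphan nuclear receptor that is induced by antigen receptor signals in T cells, IER2 a small nuclear protein, and DUSP1 a phosphatase that switches off the MAP kinases upstream of these genes.

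The 36 libraries came from MC38 tumours, a mouse colon adenocarcinoma line inoculated intradermally into mice and collected on day 7. *muMt*-/- mice were on the C57BL/6J background, and WT mice of the study were C57BL/6J or C57BL/6N, of which these libraries are not told apart. Ages are given as a range of a few months for all mice of the study, with no age for a group. From each tumour, 100 tumour-associated macrophages (TAMs, CD45+CD11b+F4/80 high) or 100 CD8+ T cells (CD45+TCRβ+CD8+) were sorted after collagenase digestion, and RNA was counted as distinct molecules with molecular barcodes. For each cell type there were 6 libraries from WT mice, 6 from *muMt*-/- mice (without mature B cells) and 6 from *muMt*-/- mice carrying a slow-release GABA pellet. The labels give no treatment for the WT and untreated *muMt*-/- mice, which the paper describes as implanted with placebo pellets, and they call the replicates independent library preparations where the paper describes separate mice. The comparisons ask whether B cells, and GABA given in their absence, alter the transcriptome of the immune cells in the tumour. The gene disrupted in *muMt*-/- mice was not analysed, so the genotype was not checked on it.

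Depth differed between cell types and groups. In TAMs the median library had 242756 molecules for WT mice (range 206394 to 304100), 149960 for *muMt*-/- mice (100254 to 253608) and 192775 with GABA (151856 to 262606). In CD8+ T cells the median was 42065.5 for WT mice (22896 to 76898), 67121.5 for *muMt*-/- mice (51064 to 77839) and 80283 with GABA (65356 to 98015). Levels are given as normalized molecules, the count of a gene divided by the size factor of its library (DESeq2's median of ratios over the 18 libraries of a cell type). Fewer expressing cells among the 100 and less RNA per cell cannot be told apart in such pools. Levels in the tumour and any RNA made during digestion and sorting cannot be told apart either.

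The sorted cells carried the markers of their labels. In a fit to all 36 libraries, 18 of 18 macrophage markers were higher and 14 of 14 T cell markers lower in TAMs than in CD8+ T cells in each of the 3 groups. Summed T cell markers had medians of 6.65, 2.34 and 1.99 normalized molecules in TAMs of WT, *muMt*-/- and GABA-treated *muMt*-/- mice, against 322, 283 and 284 in CD8+ T cells. Summed macrophage markers had medians of 4106, 3534 and 3732 in TAMs. In CD8+ T cells they had medians of 28.7, 104 and 154, so that both *muMt*-/- groups lay above WT mice. B cell markers summed to at most 4.05 normalized molecules in any CD8+ T cell library, and in TAMs, where *Blnk* was the most abundant of them in each group, to at most 13.2. *Blnk* had means of 8.46, 4.73 and 5.28 in TAMs of WT, *muMt*-/- and GABA-treated *muMt*-/- mice, and so was also present in mice without mature B cells. NK cell markers did not exceed 8.23 in any library, and tumour epithelium markers reached 33.5 in an *muMt*-/- TAM library, nearly all of it *Cdh1*. Fibroblast and endothelium markers, with *Col3a1* the most abundant, were not low in all libraries. In TAMs they summed to 20.1 to 982 in WT mice (median 77.9, highest in library 6), 17.1 to 391 in *muMt*-/- mice (median 94.3) and 108 to 500 with GABA (median 118). In CD8+ T cells they reached 45.7, 85.4 and 40.3 in the same groups. Neutrophil markers reached 38.3 in TAMs and 20.2 in CD8+ T cells, and dendritic cell markers 14.7 and 31.0, the latter mostly *Ccr7*. Which cells this *Ccr7* RNA came from was not tested.

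In TAMs of *muMt*-/- mice, 1 of 10 immediate early genes passed the test against WT mice. This was *Dusp1*, the MAP kinase phosphatase, which rose 1.49-fold. All 10 members had a positive log2 fold change, where 46.3% of all genes tested did, and their median was 0.39 where that of all genes was −0.05. *Fosb*, *Fos*, *Nr4a1*, *Junb* and *Atf3* followed with values of 0.36 to 0.66 that did not pass. *Jun*, *Egr1*, *Ier2* and *Jund* stayed at 0.12 to 0.27.

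*Dusp1* ranged from 128 to 189 normalized molecules in WT TAMs (median 168) and from 188 to 337 in *muMt*-/- TAMs (median 251; n = 6 each). The groups overlapped in a single library: 5 of 6 *muMt*-/- libraries lay above every WT library and the remaining library, replicate 5, lay just under the WT maximum. The log2 fold change was 0.57 (SE 0.15), with an adjusted p of 0.0317 in the quasi-likelihood F-test of edgeR, where p was adjusted by the Benjamini-Hochberg method over all 9469 genes tested and called under 0.05. Of all genes, 2.05% were called in this comparison, 1.02% higher and 1.02% lower. Before adjustment, at p under 0.05, 6 of 10 members were higher and 0 lower, where 14.9% of all genes passed, 6.72% higher and 8.15% lower.

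Among the AP-1 genes, *Fos* ranged from 179 to 286 in WT TAMs (median 246) and from 249 to 484 in *muMt*-/- TAMs (median 320). Again 5 of 6 *muMt*-/- libraries exceeded every WT library, with a log2 fold change of 0.47 (SE 0.15, adjusted p = 0.0873). *Fosb*, a close relative of *Fos*, ranged from 22.2 to 47.7 in WT TAMs (median 40.3) and from 38.8 to 107 in *muMt*-/- TAMs (median 52.4). Here 4 of 6 *muMt*-/- libraries lay above every WT library, and the log2 fold change was 0.66 (SE 0.20, adjusted p = 0.0752). *Junb*, a JUN family member that is a weaker activator than JUN, had medians of 110 and 138 with 4 of 6 *muMt*-/- libraries above WT (log2 fold change 0.43, SE 0.16, adjusted p = 0.181). *Atf3*, a stress-induced member that represses many of its targets, had medians of 53.8 and 72.4 and also 4 of 6 libraries above WT (0.36, SE 0.18, adjusted p = 0.336). *Jun* and *Jund* overlapped between the groups, with 2 and 1 libraries above WT.

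Outside AP-1, the nuclear receptor *Nr4a1* ranged from 11.8 to 20.3 in WT TAMs (median 18.1) and from 16.4 to 37.7 in *muMt*-/- TAMs (median 27.8). As for *Fos* and *Dusp1*, 5 of 6 *muMt*-/- libraries exceeded every WT library, and the low library was replicate 5 here too (log2 fold change 0.63, SE 0.21, adjusted p = 0.115). *Egr1* spread widely within each group, from 15.1 to 81.2 in WT TAMs and from 21.8 to 89.3 in *muMt*-/- TAMs, and its median was the lower one in *muMt*-/- TAMs (44.1 against 45.8). For *Egr1* and for *Ier2*, 1 of 6 *muMt*-/- libraries lay above WT. *Ier2* had medians of 16.0 and 16.8. *muMt*-/- library 4 was the highest of its group for *Fos*, *Fosb*, *Junb*, *Nr4a1*, *Ier2* and *Dusp1*. The picture holds for shares of a library only: in molecules without normalization, 0 of 6 *muMt*-/- libraries exceeded the WT range for *Fos*, *Nr4a1* or *Dusp1*. The *muMt*-/- libraries held fewer molecules at the median (149960 against 242756). Not all did, since *muMt*-/- libraries 3 (209198) and 5 (253608) lay within the WT range of 206394 to 304100.

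**Figure D1:**
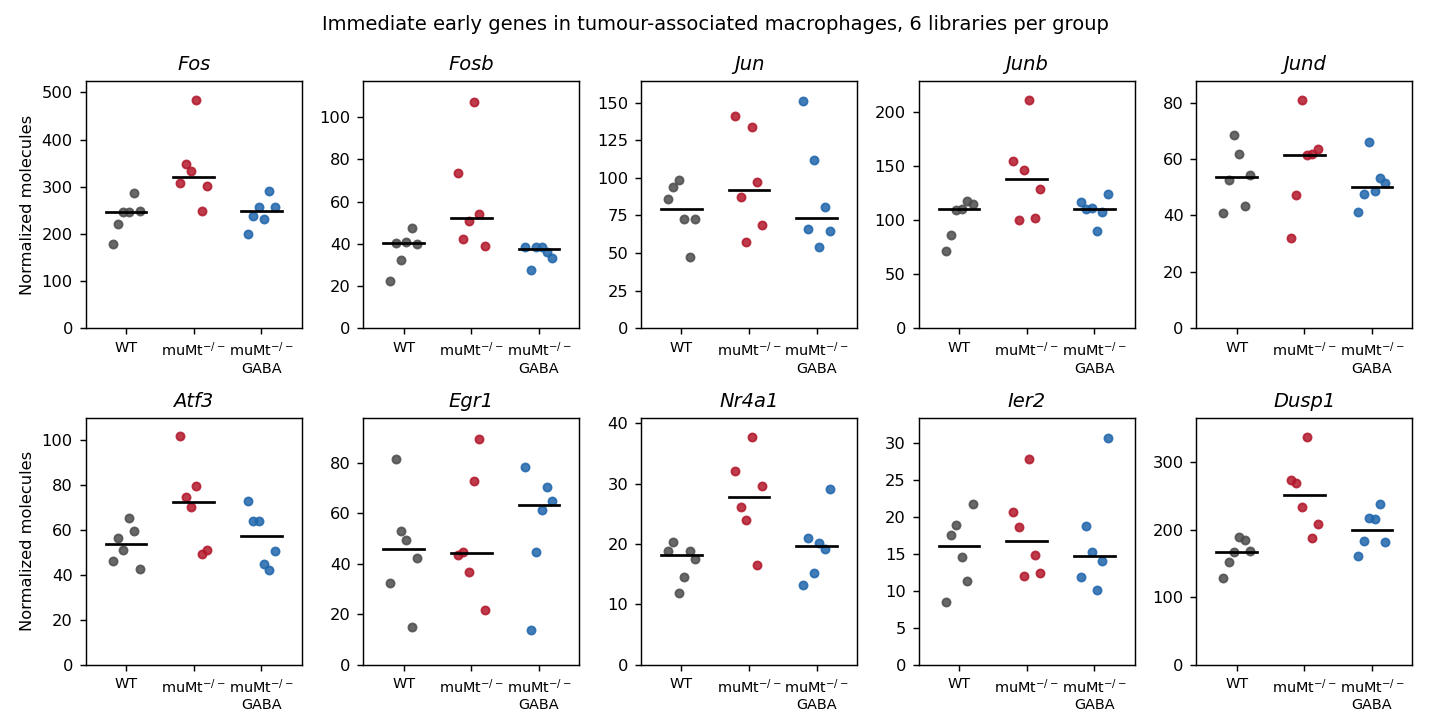
Normalized molecules of each immediate early gene (vertical axes, from 0) in TAMs of WT, *muMt*-/- and GABA-treated *muMt*-/- mice; each point is 1 of 6 libraries of 100 cells and the line is the median. *Dusp1* spans 128 to 189 in WT and 188 to 337 in *muMt*-/- libraries, and *Fosb* spans 38.8 to 107 in *muMt*-/- and 27.4 to 38.6 in GABA-treated libraries.

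The call of *Dusp1* was lost without any of 8 libraries, with log2 fold changes of 0.47 to 0.58: adjusted p was 0.0966, 0.0688, 0.0632 and 0.0573 without WT libraries 1, 2, 3 and 6, and 0.0678, 0.0776, 0.0530 and 0.130 without *muMt*-/- libraries 1, 2, 3 and 4. *Fos* and *Nr4a1* were called without *muMt*-/- library 5 (adjusted p = 0.0471 and 0.0468) and *Fosb* without library 6 (0.0470). DESeq2's Wald test called *Fos* (0.50, adjusted p = 0.0147, range over all alternatives 0.0147 to 0.381) and *Fosb* (0.69, adjusted p = 0.0290, range 0.029 to 0.481) beside *Dusp1*, where it called 282 of all genes and edgeR 194. With the log2 number of molecules of a library as a covariate, *Dusp1* had a log2 fold change of 0.51 and an adjusted p of 0.371, where its adjusted p over all alternatives ranged from 0.00200 to 0.371. Depth differed between the groups, and its part in the result was not tested beyond that fit.

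In 4 lists of other early response genes, more genes had higher than lower values in *muMt*-/- TAMs: 23 of 28 early effector genes, 14 of 23 other early transcription factor genes, 12 of 20 other AP-1 family genes and 5 of 8 phosphatases and inhibitors of MAP kinases, where 46.3% of all genes did. Few passed the test, in which 1.02% of all genes were called higher. DESeq2 called 8 effector, 4 transcription factor and 2 AP-1 genes and 1 phosphatase higher and 0 lower. By edgeR, of 28 early effector genes tested, 4 rose and 0 fell, with a median log2 fold change of 0.33: *Gadd45b*, a sensor of stress (1.14, SE 0.30, adjusted p = 0.0317), *Ptgs2*, the inducible cyclooxygenase (0.90, SE 0.22, adjusted p = 0.0218), the neutrophil chemokine gene *Cxcl2* (0.87, SE 0.20, adjusted p = 0.0123) and *Btg1* (0.54, SE 0.14, adjusted p = 0.0317). Of 23 other early transcription factor genes, 3 rose and 0 fell (median 0.22): *Bhlhe40* (1.19, SE 0.25, adjusted p = 0.00597), *Nr4a2*, a paralogue of *Nr4a1* (1.13, SE 0.29, adjusted p = 0.0286), and *Klf4* (1.08, SE 0.21, adjusted p = 0.00349). Of 20 other AP-1 family genes, 1 rose, the haem-regulated repressor *Bach1* (1.13, SE 0.23, adjusted p = 0.00468), and 0 fell, with a median of 0.14. Of 8 phosphatases and inhibitors of MAP kinases, 1 rose, *Dusp3* (0.83, SE 0.22, adjusted p = 0.0311), with a median of 0.09.

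The signalling genes upstream had 0 calls, and no test compared the lists with each other. By edgeR and by DESeq2, 0 of 22 genes of the MAP kinase cascade were called, with 12 positive and 10 negative values, of which 2 and 2 had an unadjusted p under 0.05, and a median of 0.02. The most abundant were *Mapkapk2*, a kinase activated by p38 (log2 fold change −0.57), and *Nras* (0.40). Of 13 genes for SRF and its partners, CREB coactivators and MEF2 factors, 0 were called by either tool, 2 were higher and 0 lower without adjustment, and the median was −0.07; the most abundant, *Mef2a* and *Elk3*, had 0.27 and −0.07. Heat shock and chaperone genes, which also respond to cell handling, had 0 of 14 called by either tool, 1 higher and 1 lower without adjustment and a median of −0.18, with *Hspa8* at −0.17 and *Hsp90ab1* at −0.19.

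Nuclear RNA differed in TAMs as well. Of 3 nuclear RNAs tested (of 5 listed), 2 rose in *muMt*-/- TAMs: *Malat1* (0.82, SE 0.16, adjusted p = 0.00385) and *Neat1* (1.22, SE 0.18, adjusted p = 8.6e-05). Summed over the list, of which *Malat1* was the most abundant and 1 gene was at 0 in *muMt*-/- TAMs, levels were 594 to 722 in WT TAMs, 886 to 2127 in *muMt*-/- TAMs and 650 to 1077 with GABA. The highest library was *muMt*-/- library 4, the same that led for 6 members. Within groups, the members' correlations with this sum over 18 TAM libraries, which share library and depth, had a median Pearson r of 0.28 (−0.13 for *Nr4a1* to 0.56 for *Fosb*). With summed macrophage markers the median was −0.003 (−0.69 for *Jun* to 0.62 for *Nr4a1*). With heat shock genes it was −0.17 (−0.53 for *Fos* to 0.46 for *Jun*). With the log2 number of molecules it was −0.15 (−0.58 for *Jun* to 0.44 for *Jund*). Macrophage markers also differed between WT and *muMt*-/- TAMs, with *Itgam* higher (0.66) and *Lyz2* (−0.74), *C1qb* (−0.62) and *C1qc* (−0.57) lower of 18. *Cdh1* was higher (1.11) as the only tumour epithelium gene of 7 that passed the filter. Neutrophil markers, with *Csf3r* the most abundant and 1, 1 and 2 of 8 at 0, summed to 6.82 to 38.3 in WT TAMs (median 8.70), 13.2 to 29.5 in *muMt*-/- TAMs (median 25.7) and 7.97 to 22.2 with GABA (median 17.4). Of 6 tested, 0 were called by edgeR or DESeq2 in *muMt*-/- over WT TAMs and 1 was higher unadjusted (median 0.74), and with GABA 0 were called and 1 was lower unadjusted (median −0.16). Dendritic cell markers, with 4, 2 and 1 of 7 at 0 and *Clec9a*, *Ccr7* and *Clec9a* the most abundant, summed to 0.727 to 2.51 (median 1.19), 1.57 to 14.7 (median 5.32) and 1.33 to 11.2 (median 3.88). Of 2 tested, 0 were called and 1 was higher unadjusted in *muMt*-/- over WT TAMs (median 2.38), and with GABA 0 were called or passed unadjusted (median −0.38). Of 7 fibroblast and endothelium markers tested, 0 were higher and 7 lower in *muMt*-/- than in WT TAMs (median −0.34, 1 of them unadjusted), where the median of their sums was the higher one in *muMt*-/- TAMs. With GABA 4 were higher and 3 lower (median 0.15, 0 unadjusted), and 0 were called by edgeR or DESeq2 in either comparison. The part of these in the result was not tested.

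With GABA, TAMs of *muMt*-/- mice had lower medians of *Fosb* and *Fos*, and 0 of 10 members passed the test by edgeR. *Fosb* ranged from 27.4 to 38.6 normalized molecules with GABA (median 37.3) and from 38.8 to 107 without (median 52.4). All 6 GABA libraries lay below all 6 *muMt*-/- libraries, though the nearest libraries of the groups nearly touched; 0.591% of all genes tested showed groups that did not overlap, 0.317% with GABA lower. *Fos* ranged from 200 to 290 with GABA (median 247) and from 249 to 484 without (median 320), with 3 of 6 GABA libraries below all *muMt*-/- libraries. Scaled to the total of a library in place of size factors, 4 of 6 GABA libraries lay below for *Fosb* and 1 of 6 for *Fos*, and in molecules without normalization 0 and 1.

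The log2 fold change of *Fosb* was −0.75 (SE 0.21), with an adjusted p of 0.195 and a range of 0.0231 to 0.561 over the alternatives. That of *Fos* was −0.42 (SE 0.15), with an adjusted p of 0.341 and a range of 0.0410 to 0.730. These were the 2 members lower at an unadjusted p under 0.05, where 8.46% of all genes passed, 5.15% higher and 3.31% lower, and 0.0211% of all genes (2 genes) were called after adjustment. DESeq2's Wald test, which called 62 of all genes, called both, *Fos* at −0.45 (adjusted p = 0.0410) and *Fosb* at −0.78 (adjusted p = 0.0231). *Dusp1* had a median of 199 with GABA, between those of WT and *muMt*-/- TAMs (log2 fold change −0.30, SE 0.15, adjusted p = 0.600). *Nr4a1* (−0.39), *Junb* (−0.32) and *Atf3* (−0.29) were also below 0, and *Egr1* (0.07) and *Ier2* (0.02) were not. The members' median was −0.29 where that of all genes was 0.06. *Cdh1* was also lower at an unadjusted p under 0.05 (−0.58). Of 18 macrophage markers, 4 were lower and 0 higher unadjusted, with a median of −0.005. EdgeR and DESeq2 called 0 of these markers, and their part in the result was not tested.

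The lists of other early genes had 0 calls by edgeR. Early effector genes had a median of −0.29, with 0 of 28 called, 9 lower and 0 higher without adjustment, and 2 lower by DESeq2; the most abundant, *Btg1* and *Mcl1*, had −0.30 and −0.17. Other early transcription factor genes had a median of −0.27 (0 of 23 called, 1 higher and 4 lower unadjusted, 1 lower by DESeq2), with *Klf6* at −0.35 and *Irf1* at 0.12. Other AP-1 family genes had a median of −0.15 (0 of 20 called, 2 higher and 3 lower unadjusted, 1 lower by DESeq2), with *Nfe2l2* at −0.30. Phosphatases, the MAP kinase cascade, SRF with its partners and heat shock genes had medians of −0.11, 0.05, −0.05 and 0.00. In these 4 lists 0 genes were called by edgeR or DESeq2, with 1 higher and 4 lower before adjustment. *Malat1* (−0.66) and *Neat1* (−0.70) were lower without passing the test of edgeR (adjusted p = 0.139 and 0.132), and DESeq2 called both.

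Against WT TAMs, which are the same 6 control libraries as above, TAMs of GABA-treated *muMt*-/- mice showed 0 of 10 members called by edgeR, 0 at an unadjusted p under 0.05 and 0 by DESeq2. In this comparison 0.0739% of all genes were called by edgeR (7 genes, and 13 by DESeq2) and 7.02% passed unadjusted. The members' median was 0.13 where that of all genes was 0.02. *Dusp1* had a log2 fold change of 0.28 (95% interval −0.03 to 0.58), with 3 of 6 GABA libraries above every WT library. *Fos* had 0.05 (−0.26 to 0.35) and *Fosb* −0.09 (−0.51 to 0.32). Of 18 macrophage markers, 4 were higher and 14 lower, 4 of the lower ones at an unadjusted p under 0.05 (median −0.19). EdgeR called 0 of them and DESeq2 called 2 lower. Unadjusted, 1 dendritic cell marker was higher, and 1 B cell marker and 1 fibroblast and endothelium marker were lower, with 0 called by edgeR or DESeq2. The part of these markers was not tested. In the lists 0 genes of early response, signalling, heat shock or nuclear RNA were called by edgeR or DESeq2. Their medians were 0.12 for other AP-1 genes (1 higher and 0 lower without adjustment), 0.03 for other early transcription factor genes (3 and 0), 0.15 for effector genes (0 and 2), 0.01 for phosphatases (0 and 0), −0.03 for the MAP kinase cascade (2 and 1), −0.14 for SRF with its partners (0 and 1), −0.15 for heat shock genes (0 and 0) and 0.52 for nuclear RNA (2 and 0).

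In CD8+ T cells of *muMt*-/- mice, 0 of 10 immediate early genes passed the test of edgeR or DESeq2 against WT mice, as did 0% of all genes. Without adjustment, 5 of 10 members were higher at p under 0.05 and 0 lower, where 6.17% of all genes passed, 5.37% higher and 0.795% lower: *Fosb*, *Fos*, *Junb*, *Atf3* and *Nr4a1*. The members' median log2 fold change was 0.60 where that of all genes was 0.15, both with the TMM scaling of edgeR. With DESeq2 size factors the median of all genes was 0.06. Of the 10, 9 were positive, and *Ier2* was at −0.43 (SE 0.31; median 9.15 in *muMt*-/- and 12.5 in WT T cells). The median of *Dusp1* was also lower in *muMt*-/- T cells, at 13.4 against 15.5.

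*Fosb* ranged from 1.03 to 8.26 normalized molecules in WT T cells (median 5.26) and from 2.24 to 29.3 in *muMt*-/- T cells (median 9.42). *Fos* ranged from 6.01 to 35.4 (median 17.9) and from 10.1 to 81.9 (median 26.7). For each of these AP-1 genes 3 of 6 *muMt*-/- libraries lay above every WT library, so the groups overlapped broadly. *Nr4a1*, often used as a marker of recent antigen receptor signalling, ranged from 5.26 to 16.0 in WT T cells (median 13.8) and from 11.9 to 30.0 in *muMt*-/- T cells (median 17.5), with 4 of 6 *muMt*-/- libraries above WT. *Atf3* was nearly absent in WT T cells (0 to 5.72, median 1.03) and ranged from 0.833 to 28.3 in *muMt*-/- T cells (median 4.31).

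The log2 fold changes were 1.26 for *Fosb* (SE 0.46, adjusted p = 0.595) and 0.96 for *Fos* (SE 0.45, adjusted p = 0.759). They were 0.72 for *Nr4a1* (SE 0.30, adjusted p = 0.686) and 1.74 for *Atf3* (SE 0.79, adjusted p = 0.735). *Junb* had 0.52 (SE 0.25, adjusted p = 0.794), with 2 of 6 *muMt*-/- libraries above WT. *Egr1* (0.65), *Dusp1* (0.56), *Jun* (0.36) and *Jund* (0.25) had intervals that included 0. These T cell libraries hold few molecules of each member, and the 95% interval of *Fosb* ran from 0.33 to 2.19.

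Markers of other cells differed in this comparison as well. Of 16 macrophage markers tested in CD8+ T cells (of 18 listed), 16 were higher in *muMt*-/- than in WT mice, 13 of them at an unadjusted p under 0.05 and 0 after adjustment, by edgeR or DESeq2, with a median log2 fold change of 1.97. Their summed level was 22.0, 14.4, 35.4, 10.3, 149 and 38.3 normalized molecules in WT libraries 1 to 6, 488, 68.4, 123, 70.6, 173 and 84.9 in *muMt*-/- libraries, and 268, 164, 250, 37.8, 21.1 and 145 in GABA-treated libraries. *Ctss* was the most abundant marker in each group, and 2 markers were at 0 in WT T cells. As a share of the mean sum in TAMs, with normalization over all 36 libraries, these were medians of 2.23%, 7.92% and 11.98%. The highest, 36.3%, was *muMt*-/- library 1, which was also the highest T cell library for *Fos*, *Fosb*, *Junb*, *Atf3* and *Dusp1*. Fibroblast and endothelium markers summed to 5.16 to 45.7 in WT T cells (median 11.5) and 0.833 to 85.4 in *muMt*-/- T cells (median 39.0), with *Col3a1* the most abundant and 2 and 1 of 9 at 0. Of 3 tested, 2 were higher and 1 lower, with a median log2 fold change of 0.81 and 0 at an unadjusted p under 0.05. Neutrophil markers summed to 0 to 14.3 (median 0) and 0.833 to 20.2 (median 3.47), with *S100a8* the most abundant and 4 and 2 of 8 at 0. Of 2 tested, 1 was higher and 1 lower, the higher one at an unadjusted p under 0.05. In both lists 0 were called by edgeR or DESeq2, and their part in the result was not tested.

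Members differed in how closely they followed those markers in T cells. Over the 18 CD8+ T cell libraries with group means removed, which share library and depth, Pearson r with the summed markers was 0.83 for *Fos* and *Atf3*, 0.63 for *Jun*, 0.54 for *Fosb*, 0.52 for *Dusp1*, 0.23 for *Jund* and −0.30 for *Nr4a1* (median 0.52 over the 10 members). With nuclear RNA it was as high, with a median of 0.53 (0.75 for *Fos*, 0.67 for *Dusp1*, −0.32 for *Nr4a1*), and with heat shock genes the median was 0.38 (0.70 for *Jun*, 0.59 for *Egr1*). Not all members followed these sums: with macrophage markers, nuclear RNA and heat shock genes in turn, *Nr4a1* had −0.30, −0.32 and −0.10, *Ier2* 0.12, −0.13 and −0.25, and *Jund* 0.23, 0.26 and 0.18. With the summed markers as a covariate, chosen after the data were seen, the log2 fold change of *muMt*-/- over WT T cells was −0.50 for *Fos*, −0.77 for *Jun*, −0.40 for *Atf3* and −0.26 for *Dusp1*, so that these turned negative, and 0.38 for *Fosb*. That of *Nr4a1* was 1.03 (SE 0.33, adjusted p = 0.484, range 0.482 to 0.9997 over all alternatives), and 0 members were called. Without the T cell library of highest macrophage markers in each group (WT 5, *muMt*-/- 1 and GABA-treated 1), *Fos* had 0.88, *Fosb* 0.81, *Atf3* 1.31, *Nr4a1* 0.81 and *Dusp1* −0.02, again with 0 members called. The part of macrophage RNA was not tested further, and that of nuclear RNA and heat shock genes was not tested.

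**Figure D2:**
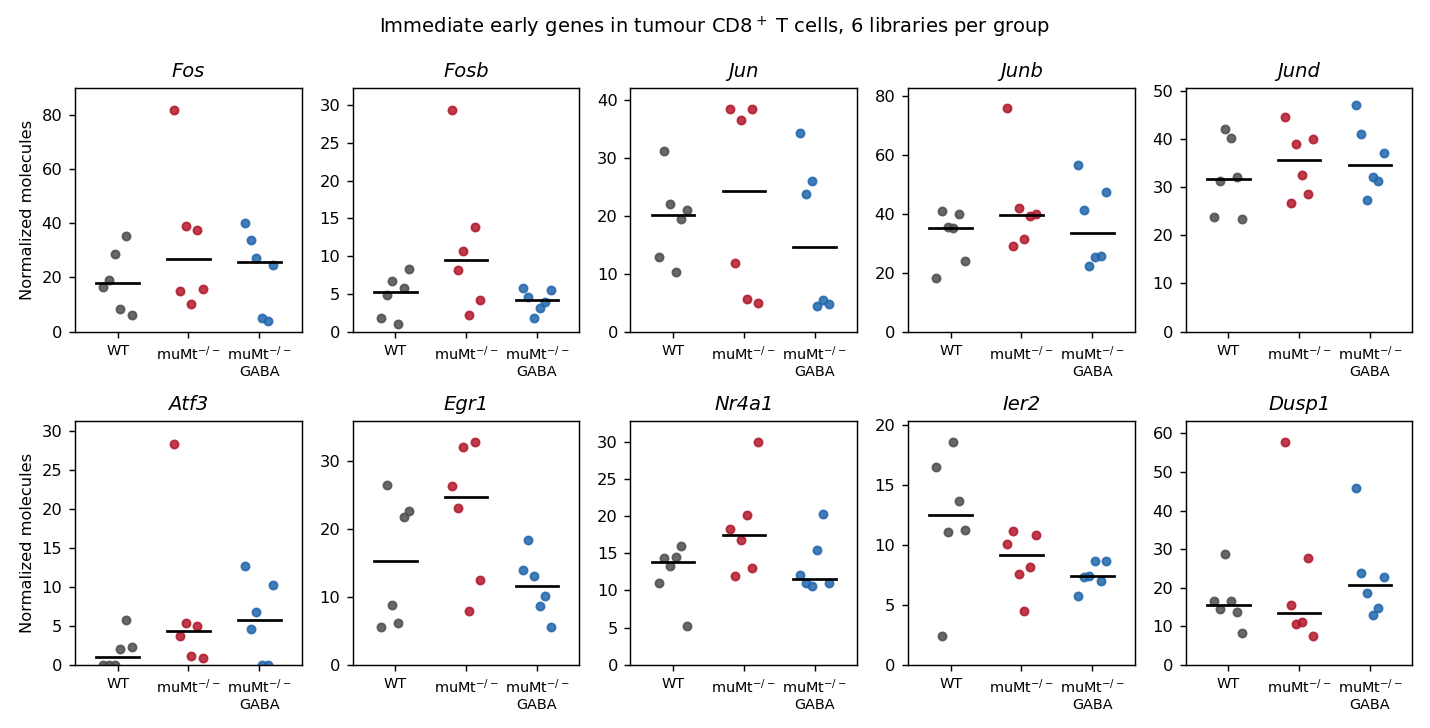
Normalized molecules of each immediate early gene (vertical axes, from 0) in CD8+ T cells of WT, *muMt*-/- and GABA-treated *muMt*-/- mice; each point is 1 of 6 libraries of 100 cells and the line is the median. *Fos* spans 6.01 to 35.4 in WT, 10.1 to 81.9 in *muMt*-/- and 3.90 to 40.0 in GABA-treated libraries.

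**Figure D3:**
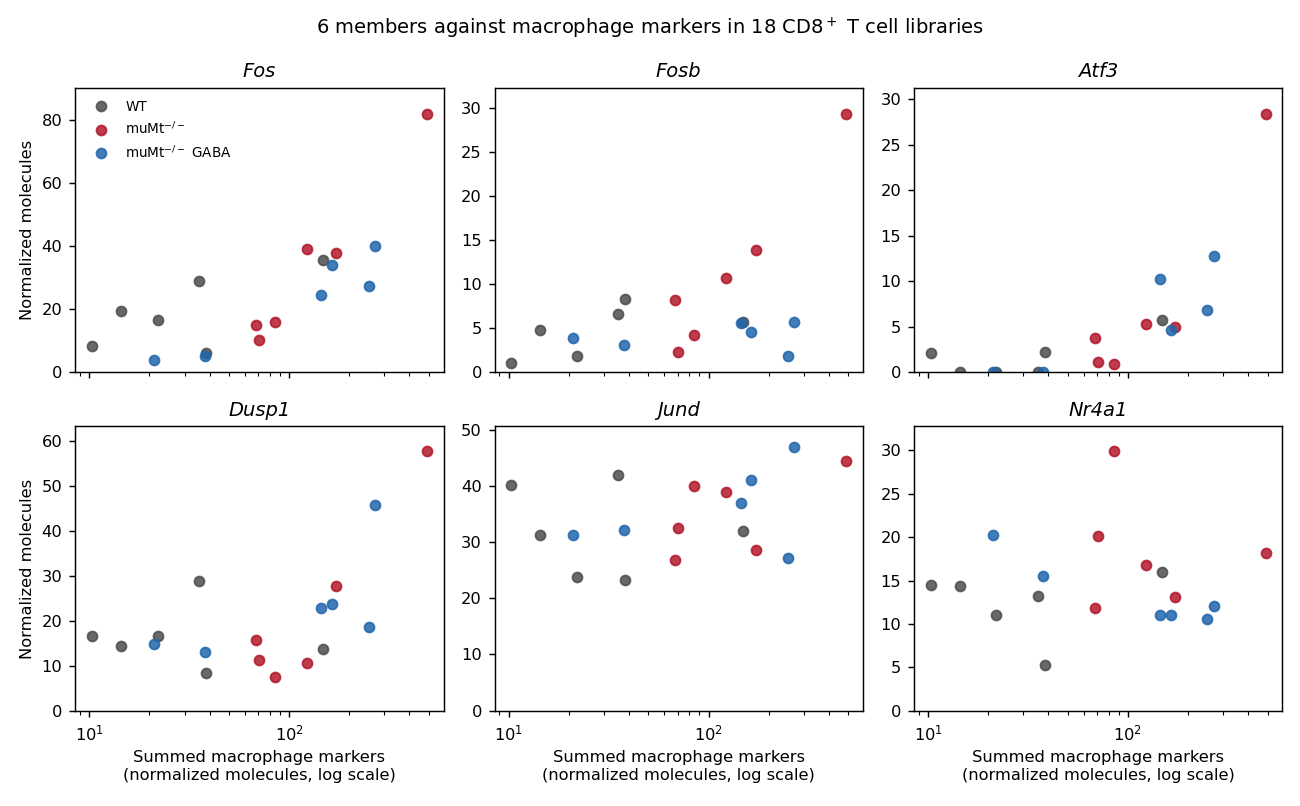
Normalized molecules of 6 members (vertical axes, from 0) against the summed level of 18 macrophage marker genes (horizontal axes, normalized molecules, log scale) in the 18 CD8+ T cell libraries, coloured by group. With group means removed, r on the log2 scale is 0.83 for *Fos* and −0.30 for *Nr4a1*.

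The other early genes of *muMt*-/- T cells gave 0 calls by edgeR or DESeq2 in each list. Early effector genes had a median of 0.49 (26 tested, 6 higher and 0 lower without adjustment), with the chemokine genes *Ccl4* at 0.26 and *Ccl3* at 0.03. Other early transcription factor genes had 0.30 (17 tested, 3 higher and 0 lower unadjusted), with *Klf6* at −0.06 and *Id2* at 0.30, and other AP-1 family genes 0.07 (18 tested, 2 higher and 1 lower unadjusted), with *Atf4* at 0.17 and *Fosl2* at 0.13. Phosphatases and inhibitors of MAP kinases lay at −0.21 (9 tested, 0 unadjusted), with *Dusp2*, the phosphatase most abundant in T cells here, at −0.36 and *Dusp6* at −0.21. The MAP kinase cascade had −0.04 (20 tested, 0 unadjusted), with *Nras* at −0.19 and *Mapkapk2* at 0.51. SRF with its partners had 0.32 (10 tested, 0 higher and 1 lower unadjusted), with *Crem* at −0.83 and *Mef2d* at 0.22. Heat shock genes had 0.22 (13 tested, 1 higher and 0 lower unadjusted) and nuclear RNA 0.31 (3 tested, 0 unadjusted).

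With GABA, T cells of *muMt*-/- mice had lower medians of *Fosb* and *Egr1*, again without a call: 0 of 10 members passed by edgeR or DESeq2, where 0% of all genes did. *Fosb* ranged from 1.86 to 5.72 with GABA (median 4.24) and from 2.24 to 29.3 without (median 9.42). *Egr1*, which follows antigen receptor and growth factor signals, ranged from 5.52 to 18.3 with GABA (median 11.6) and from 7.85 to 32.7 without (median 24.7). In each case 1 of 6 GABA libraries lay below all *muMt*-/- libraries, and 0 in molecules without normalization, so the groups overlapped. The log2 fold changes were −1.38 for *Fosb* (SE 0.42, adjusted p = 0.999) and −0.92 for *Egr1* (SE 0.33, adjusted p = 0.999). Both passed at an unadjusted p under 0.05, as did 3.71% of all genes, 2.01% higher and 1.7% lower.

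For these 2 genes the macrophage covariate left the values near where they were, at −1.23 for *Fosb* and −0.88 for *Egr1*, and without the libraries of highest macrophage markers they were −1.06 and −0.95. Of 16 macrophage markers tested, 8 were higher and 8 lower with GABA, with a median of −0.00. Fibroblast and endothelium markers differed: of 3 tested (of 9 listed), 2 were lower unadjusted and 0 were called by edgeR or DESeq2, with a median of −1.27. Their summed level was 31.4, 60.9, 85.4, 4.49, 46.6 and 0.833 normalized molecules in *muMt*-/- libraries 1 to 6 and 24.2, 19.2, 40.3, 6.195, 2.34 and 2.36 with GABA, with *Col3a1* the most abundant and 1 marker at 0 in each group. Their part in the result was not tested. *Cdh1* was higher (1.76) before adjustment. The members' median was −0.30, 8 of 10 were negative, and *Jund* (0.09) and *Dusp1* (0.18) were positive. *Nr4a1* had −0.38 (SE 0.27), with 3 of 6 GABA libraries below all *muMt*-/- libraries. Early effector genes had a median of −0.14 and other early transcription factor genes −0.22, where all genes had 0.03; other AP-1 genes had 0.03, phosphatases −0.03, the MAP kinase cascade −0.12, SRF with its partners −0.11, heat shock genes 0.13 and nuclear RNA −0.18. In these 8 lists 0 genes were called by edgeR or DESeq2.

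Against the same WT libraries, T cells of GABA-treated *muMt*-/- mice had 0 members called by edgeR or DESeq2 and 0 at an unadjusted p under 0.05. Of all genes, 0% were called by edgeR and 1 gene by DESeq2, and 6.89% passed unadjusted by edgeR. The median of all genes was 0.21 with the TMM scaling of edgeR and 0.06 with DESeq2 size factors, and that of the members was 0.34 with TMM. *Atf3* had 1.52 (SE 0.79) and *Dusp1* 0.74 (SE 0.37), and both had an r of at least 0.52 with macrophage markers. Those markers were higher in 16 of 16 tested, with a median of 2.04, and with them as a covariate *Atf3* had −0.40 and *Dusp1* 0.06. The part of macrophage RNA in this comparison was not tested further. *Fosb* had −0.12 (SE 0.51) and *Egr1* −0.27 (SE 0.36). In the lists 0 genes were called by edgeR or DESeq2, with medians of 0.08 for other AP-1 genes, 0.22 for other early transcription factor genes, 0.33 for effector genes, −0.21 for phosphatases, 0.09 for the MAP kinase cascade, 0.12 for SRF with its partners, 0.37 for heat shock genes and 0.11 for nuclear RNA. At an unadjusted p under 0.05 the largest numbers were 2 higher and 2 lower for other AP-1 genes and 2 higher and 1 lower for effector genes.

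Whether TAMs and T cells responded differently was tested directly, as the difference of the log2 fold changes in a fit to all 36 libraries. For the loss of B cells, 0 of 10 members differed by edgeR, 0 at an unadjusted p under 0.05 and 0 by DESeq2. Of all genes, 0.0118% were called by edgeR (1 gene, and 38 by DESeq2) and 10.1% passed unadjusted. The largest difference was that of *Atf3*, −1.42 in TAMs relative to T cells (SE 0.79, adjusted p = 0.552). *Dusp1*, called in TAMs alone, differed by −0.03 (SE 0.40, adjusted p = 0.995), so its change was not shown to be particular to TAMs. Its T cell value of 0.56 turned negative in both alternatives for macrophage markers given above. In this test 18 of 18 macrophage markers had a negative difference, 14 of them unadjusted (median −2.17). EdgeR called 0 of them and DESeq2 called 4. The 1 B cell marker tested was lower unadjusted (−5.17) and the 1 dendritic cell marker higher (3.66). Their part in the result was not tested. The median of all genes in this test was −0.30 with TMM and −0.11 with size factors. For GABA, 0 members differed after adjustment by edgeR or DESeq2, where 0% of all genes did. *Egr1* was the 1 member with an unadjusted p under 0.05, as were 4.53% of all genes (2.58% higher and 1.95% lower), with a difference of 0.99 (SE 0.49, adjusted p = 0.994, range 0.714 to 0.99996 over the alternatives). It had −0.92 in T cells and 0.07 in TAMs. In the same test of GABA, 2 of 6 fibroblast and endothelium markers were higher at an unadjusted p under 0.05 (median 1.35). *Cdh1* was lower unadjusted (−2.48). Of these markers 0 were called by edgeR or DESeq2, and their part in the result was not tested.

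**Figure D4:**
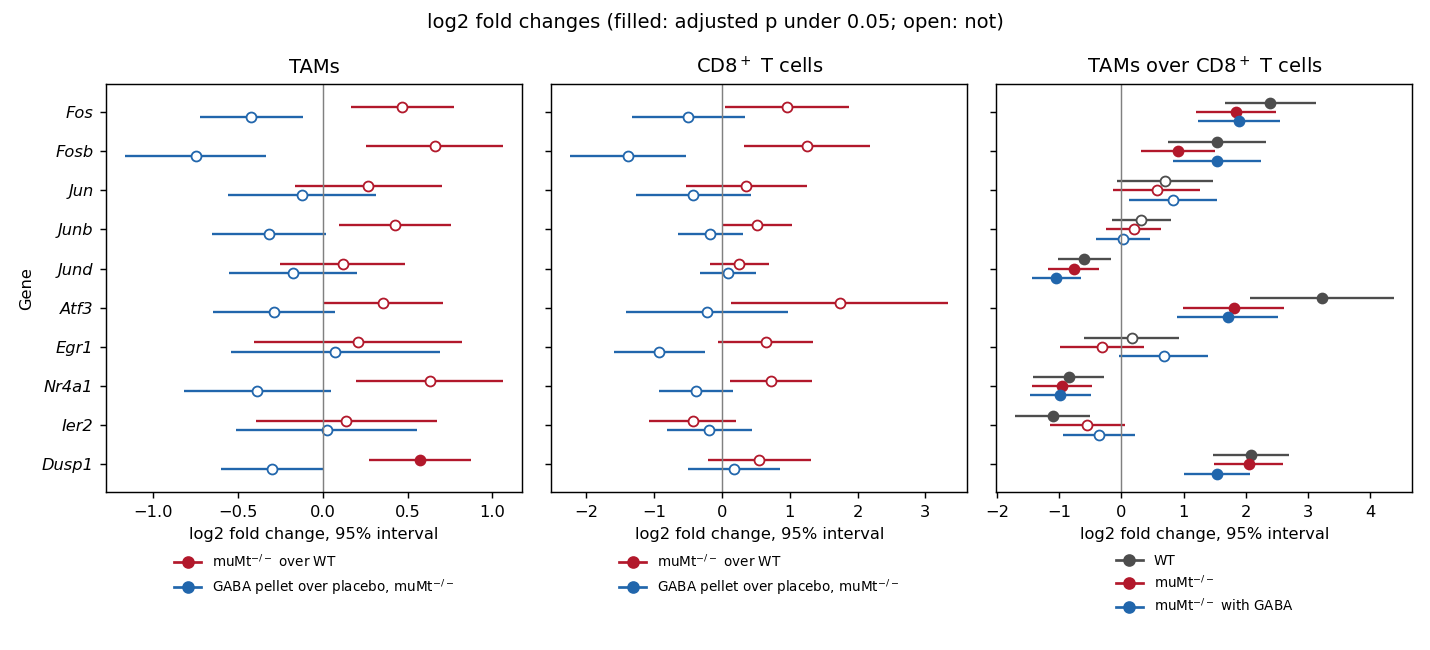
log2 fold changes (horizontal axes) of each immediate early gene with 95% intervals from edgeR, in TAMs, in CD8+ T cells and between the cell types within each group; filled points have an adjusted p under 0.05. *Dusp1* (0.57) is the filled point for *muMt*-/- over WT TAMs, and *Fosb* lies at −0.75 for GABA in TAMs and at −1.38 in T cells.

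The members differed in direction between the cell types, also within the AP-1 group. *Fos*, *Fosb*, *Atf3* and *Dusp1* were higher in TAMs in each of the 3 groups, and *Nr4a1* and *Jund* were higher in CD8+ T cells in each. *Ier2* was higher in T cells of WT mice. In WT mice 4 members were called higher and 3 lower in TAMs, where 22.7% of all genes were called, 16.8% higher and 5.99% lower. In *muMt*-/- mice it was 4 and 2, where 21.4% of all genes were called, 13.6% higher and 7.71% lower, and with GABA 4 and 2, where 22% were called, 14.1% higher and 7.93% lower. Genes listed as markers of other cells also differed between TAMs and T cells. Of 6 fibroblast and endothelium markers tested, 6 were higher in TAMs in WT mice (median 1.26, 2 unadjusted, 0 called), 3 in *muMt*-/- mice (median 0.39, 1 unadjusted, 0 called) and 6 with GABA (median 1.97, 2 called by edgeR and 0 by DESeq2). *Cdh1* was called higher in TAMs in *muMt*-/- mice (3.07), and of 4 neutrophil markers *Csf3r* was called higher in WT (4.95) and *muMt*-/- mice (2.16). The 1 dendritic cell marker tested was called lower in TAMs in each group (−7.24, −3.58 and −4.58). So was the 1 NK cell marker tested (−4.39, −4.44 and −5.74). The 1 B cell marker tested was called higher in WT mice (5.69) and with GABA (2.65), and was uncalled in *muMt*-/- mice (0.52). In T cells most of the dendritic cell sum was *Ccr7*. In TAMs most of the B cell sum was *Blnk*, also in *muMt*-/- mice. Which cells this RNA came from, and the part of all these markers in the results, were not tested. Levels in the next sentences are normalized over all 36 libraries, so that they can be compared between the cell types.

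*Fos* ranged from 103 to 171 in WT TAMs (median 142) and from 10.04 to 58.7 in WT T cells (median 30.9). In *muMt*-/- mice it ranged from 146 to 293 in TAMs (median 192) and from 17.3 to 133 in T cells (median 44.6), and with GABA from 116 to 171 (median 145) and from 6.65 to 66.8 (median 43.9). All TAM libraries lay above all T cell libraries of their group, where 11.5%, 7.11% and 6.95% of all genes tested had TAMs so placed. Scaled to library totals, 5 of 6 *muMt*-/- TAM libraries did. The log2 fold changes were 2.39 in WT mice (SE 0.37, adjusted p = 6.0e-07), 1.84 in *muMt*-/- mice (SE 0.32, adjusted p = 1.1e-05) and 1.89 with GABA (SE 0.33, adjusted p = 8.8e-06).

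*Dusp1* ranged from 73.5 to 110 in WT TAMs (median 97.3) and from 13.8 to 48.0 in WT T cells (median 26.6). The groups did not overlap in any of the 3 mouse groups. The log2 fold changes were 2.08 (SE 0.31, adjusted p = 2.4e-07), 2.04 (SE 0.27, adjusted p = 4.4e-08) and 1.54 (SE 0.26, adjusted p = 7.9e-06). *Atf3* ranged from 25.3 to 38.2 in WT TAMs and from 0 to 9.47 in WT T cells, with log2 fold changes of 3.22 (SE 0.57), 1.80 (SE 0.41) and 1.71 (SE 0.40) and adjusted p of at most 0.000941. Its groups overlapped in *muMt*-/- mice, where 2 of 6 TAM libraries lay above all T cell libraries, and not in the others. *Fosb* had log2 fold changes of 1.54 (SE 0.39), 0.90 (SE 0.30) and 1.54 (SE 0.35), with adjusted p of 0.00200, 0.0213 and 0.000673 and with 5, 1 and 6 of 6 TAM libraries above all T cell libraries.

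*Nr4a1* went the other way. It ranged from 6.77 to 11.7 in WT TAMs (median 10.5) and from 8.79 to 26.5 in WT T cells (median 23.5). In *muMt*-/- mice it ranged from 9.67 to 22.8 (median 16.7) and from 20.3 to 51.1 (median 28.6), and with GABA from 7.67 to 17.1 (median 11.6) and from 17.5 to 34.6 (median 19.7). Of the TAM libraries 2, 5 and 6 of 6 lay below all T cell libraries, and 3.21% of all genes tested had all GABA-treated TAM libraries below. The log2 fold changes were −0.84 (SE 0.28, adjusted p = 0.0239), −0.96 (SE 0.24, adjusted p = 0.00202) and −0.98 (SE 0.24, adjusted p = 0.00170).

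*Jund*, the JUN family member least dependent on stimulation, had medians of 31.3, 36.8 and 29.6 in TAMs and of 53.4, 59.9 and 59.7 in T cells. TAM libraries lay below all T cell libraries in 5, 5 and 6 of 6 cases. The log2 fold changes were −0.59 (SE 0.21, adjusted p = 0.0321), −0.77 (SE 0.20, adjusted p = 0.00305) and −1.05 (SE 0.20, adjusted p = 3.9e-05). *Ier2* had medians of 9.31 in WT TAMs and 20.8 in WT T cells, with 0 of 6 TAM libraries below all T cell libraries (log2 fold change −1.11, SE 0.30, adjusted p = 0.00357), and −0.55 and −0.36 in the other groups, uncalled. *Jun*, *Junb* and *Egr1* were called in 0 of 3 groups by edgeR, with 1 of these 9 values at an unadjusted p under 0.05 (*Jun* with GABA, 0.83), where 32.6%, 31.7% and 32.1% of all genes passed. By DESeq2 the members called numbered 7, 6 and 6 as well.

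In molecules without normalization the lower genes were not lower. TAM libraries held 5.59, 2.45 and 2.47 times as many molecules as T cell libraries of the same group on average, and *Nr4a1* 2.51, 1.04 and 1.15 times as many, *Jund* 2.94, 1.26 and 1.09 times. *Fos* had 24.7, 7.36 and 8.43 times as many and *Dusp1* 19.6, 8.48 and 6.49 times. The lower values of *Nr4a1* and *Jund* are thus lower shares of a library, and RNA content of the cells and yield of the library cannot be told apart. The median log2 fold change of all genes was 0.36 in WT mice with TMM and 0.20 with size factors, and 0.10 against 0.13 and 0.12 against 0.16 in the other groups.

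Several calls between the cell types rested on single libraries. *Jund* in WT mice was not called without T cell library 3 (adjusted p = 0.0574) or 4 (0.148) or TAM library 1 (0.0703), and *Nr4a1* in WT mice not without T cell library 4 (0.0971) or 5 (0.0841). *Fosb* in *muMt*-/- mice was not called without T cell library 2 (0.0599), 4 (0.0938) or 6 (0.0855) or TAM library 4 (0.155), and *Jun* with GABA was called without T cell library 1 (log2 fold change 1.19, adjusted p = 0.0128). Without a filter on low counts neither was called (0.191 for *Jund*, range over all alternatives 0.000243 to 0.191, and 0.0934 for *Nr4a1*, range 0.00113 to 0.0977), and *Jun* was called in WT mice (log2 fold change 0.81, adjusted p = 0.0118, range 0.0118 to 0.509) and with GABA (0.84, adjusted p = 0.00349, range 0.00349 to 0.292), as was *Egr1* with GABA (0.70, adjusted p = 0.0351, range 0.0351 to 0.387). Without the T cell libraries of highest macrophage markers *Nr4a1* in WT mice had −0.72 (adjusted p = 0.0977) and *Jund* −0.59 (0.0381). Relative to its mean level in TAMs, *Fos* had a median of 23.4% over the 18 T cell libraries, *Dusp1* 22.7%, *Atf3* 14.2% and *Nr4a1* 185%.

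The wider early response was likewise divided in each of the 3 groups. Higher in TAMs in each were the AP-1 relatives *Maf* (2.67 in WT mice, SE 0.36), *Batf2* (3.86, SE 0.69), *Nfe2l2* (1.93, SE 0.40) and *Bach1* (1.86, SE 0.51), the transcription factor gene *Klf4* (2.33, SE 0.54) and the kinase inhibitors *Spred1* (1.85, SE 0.39), *Dusp6* (1.60, SE 0.37) and *Dusp3* (1.398, SE 0.52). Higher in T cells in each were *Nr4a3* (−5.53, SE 0.60), the paralogue of *Nr4a1*, the phosphatase gene *Dusp2* (−3.55, SE 0.38), the chemokine genes *Ccl3* (−3.63, SE 0.33) and *Ccl4* (−3.46, SE 0.39), *Bhlhe40* (−2.38, SE 0.28), *Id2* (−1.60, SE 0.26) and *Crem* (−2.48, SE 0.38), with adjusted p of at most 0.0414 for all of these in WT mice.

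By list, the numbers below stand beside the shares of all genes called higher and lower in TAMs, which were 16.8% and 5.99% in WT mice, 13.6% and 7.71% in *muMt*-/- mice and 14.1% and 7.93% with GABA, and no test compared a list with these. In WT mice, other AP-1 genes had 6 called higher and 2 lower in TAMs of 20 tested (median 0.46), other early transcription factor genes 4 and 3 of 22 (median −0.19), effector genes 8 and 6 of 28 (median 0.30) and phosphatases 3 and 3 of 11 (median 0.55), where the median of all genes was 0.36. The MAP kinase cascade had 2 and 1 of 21 (median 0.21; *Map2k3* −1.13, *Mapk3* 0.99, *Mapkapk2* 0.73) and SRF with its partners 3 and 1 of 13 (median −0.15; *Mef2a* 2.13, *Elk3* 1.10). Heat shock genes had 2 and 0 of 14 (median 0.04; *Hspa5* 1.14, *Hspa8* 0.57). Nuclear RNA had 0 of 3 called in WT mice by edgeR, 0 at an unadjusted p under 0.05 (*Malat1* 0.20, *Neat1* 0.26), and 2 called higher in TAMs in *muMt*-/- mice (*Malat1* 1.09, *Neat1* 1.08) and 1 with GABA (*Malat1* 0.61). DESeq2 gave other numbers in WT mice: 2 higher and 5 lower for other early transcription factor genes, 8 and 7 for effector genes, 2 and 3 for phosphatases, 0 and 2 for the MAP kinase cascade, 2 and 1 for SRF with its partners and 2 and 2 for heat shock genes. In the other groups the lists had these numbers called higher and lower in TAMs. Other AP-1 genes had 7 and 2 in both, other early transcription factor genes 2 and 5 without GABA and 3 and 5 with it, effector genes 10 and 6 in both, and phosphatases 4 and 4, then 3 and 3. The MAP kinase cascade had 1 and 0, then 1 and 2, SRF with its partners 2 and 2 in both, and heat shock genes 1 and 4, then 1 and 5. DESeq2 gave the same numbers without GABA, and with it differed in 3 lists, at 7 and 6 for effector genes, 1 and 1 for the MAP kinase cascade and 1 and 4 for heat shock genes.

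The 10 members did not vary as a block. Within a cell type, with group means removed, Pearson r of log2 levels over 18 libraries, which share library and depth, had a median of 0.24 over the 45 pairs in TAMs (−0.36 to 0.88) and 0.37 in CD8+ T cells (−0.41 to 0.81). In TAMs the closest pairs were *Fos* with *Dusp1* (0.88), *Fos* with *Junb* (0.70) and *Fosb* with *Junb* (0.70). In T cells they were *Junb* with *Jund* (0.81), *Jun* with *Egr1* (0.75) and *Fos* with *Jun* (0.74). *Nr4a1* stood apart in T cells, with a median r of −0.13 to the other members, as did *Ier2* at −0.06. *Jund* (0.05) and *Egr1* (0.05) stood apart in TAMs. Among pairs, 10 were negative in TAMs and 14 in T cells.

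The genes most like the mean z-score of the members over the 18 libraries differed between the cell types. In TAMs, out of 5300 genes with a mean of at least 5, they were *Chtf8* (r = 0.82), *Zswim6* (0.81), *Fam46c* (0.77), *Sf3a2* (0.77), *Lifr* (0.74), *Samd9l* (0.74), *Tpd52* (0.74), *Osm* (0.74), *Cux1* (0.71) and the glucocorticoid receptor gene *Nr3c1* (0.70). In T cells, out of 1874 genes, they were *Runx1* (0.87), *Fth1* (0.85), *Cd274* (0.85), *Gbp2* (0.81), *Lamp2* (0.80), *Psap* (0.80), *Iqgap1* (0.80), *Hspa5* (0.79), *H2-Ab1* (0.79) and *H2-Eb1* (0.79). The last 2 encode MHC class II chains, which are characteristic of antigen-presenting cells.

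Promoter sequences from RefSeq (GRCm38.p6, the build of the mapping) were available for 8 of 10 members; those of *Egr1* and *Ier2* were not in the table. In the 250 bases before the start, the 5 letters TGACG, the core shared by CREB and ATF binding motifs, were found on either strand in 6 of 8 members and in 17.9% of 32536 promoters. *Nr4a1* had them at 4 positions, *Dusp1* at 3, *Fos* at 2 and *Fosb*, *Junb* and *Atf3* at 1, where 0.138% of promoters had at least 4, 0.695% at least 3 and 3.92% at least 2. The full palindrome TGACGTCA, which contains TGACG on both strands at overlapping positions, was in *Dusp1* alone of the 8 and in 1.56% of promoters. The AP-1 motif TGACTCA, or TGAGTCA on the other strand, was in 0 of 8 and in 4.45% of promoters, the EGR motif GCGTGGGCG in 0 and 0.541%, and the CArG box of SRF in 0 and 1.48%. A match is a description of letters and not of binding. The windows of *Dusp1*, called in TAMs, of *Fos*, its closest companion there, and of *Nr4a1*, which went the other way between cell types, are shown 5′ to 3′ on the strand of the gene with TGACG on either strand in capitals. They are chr17:26508473-26508722 (minus strand), chr12:85473640-85473889 (plus strand) and chr15:101266596-101266845 (plus strand), the last of which lies within the annotated span of *Nr4a1*.
*Dusp1*: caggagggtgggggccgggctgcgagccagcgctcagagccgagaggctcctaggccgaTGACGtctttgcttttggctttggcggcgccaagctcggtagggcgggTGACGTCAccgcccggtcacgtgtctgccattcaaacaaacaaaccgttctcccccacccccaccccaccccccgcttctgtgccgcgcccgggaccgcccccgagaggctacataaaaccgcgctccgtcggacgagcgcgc
*Fos*: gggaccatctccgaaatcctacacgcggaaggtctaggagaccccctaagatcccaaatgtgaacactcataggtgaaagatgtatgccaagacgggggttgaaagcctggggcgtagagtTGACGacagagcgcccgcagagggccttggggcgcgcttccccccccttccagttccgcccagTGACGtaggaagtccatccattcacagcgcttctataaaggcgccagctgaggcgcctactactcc
*Nr4a1*: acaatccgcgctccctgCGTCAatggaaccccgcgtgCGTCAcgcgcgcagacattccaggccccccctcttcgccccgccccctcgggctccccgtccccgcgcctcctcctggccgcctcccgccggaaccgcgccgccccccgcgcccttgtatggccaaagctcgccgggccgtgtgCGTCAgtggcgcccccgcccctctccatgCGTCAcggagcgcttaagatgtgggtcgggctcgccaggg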

How the data were processed

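Reads were mapped by the authors with STAR (mm10, refFlat annotation), and the deposited table gives counts of barcoded molecules, integers that showed no sign of normalization. Of 24781 genes, 9188 have no molecule in any library. The table has 2 gene names that occur more than once, 0 spike-in genes and 0 columns of values without a sample.

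All genes with a mean above 1 normalized molecule were tested (9469 in TAMs, 6663 in CD8+ T cells, 8477 over all 36 libraries) with edgeR 4.0.16 (quasi-likelihood F-test, TMM scaling, 1 coefficient per group, 95% intervals from the t distribution), Benjamini-Hochberg adjustment and a threshold of 0.05. All 10 members passed this filter in each fit. Other tools were DESeq2 1.42.0 and limma 3.58.1 in R 4.3.3, and numpy 2.4.6, pandas 2.3.3 and matplotlib 3.10.9 in Python 3.11.15. The procedure was tested on simulated data.

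The members and lists were chosen with earlier results of these data known. Lists were other AP-1 genes, other early transcription factor genes, early effector genes, phosphatases and inhibitors of MAP kinases, the MAP kinase cascade, SRF with its partners, heat shock genes, nuclear RNA and markers of macrophages, T cells, B cells, neutrophils, NK cells, dendritic cells, tumour epithelium, and fibroblasts and endothelium. *Fosl1*, *Fosl2* and *Maff* are in the first 2. In each list and comparison the genes that may be named are up to 6 called genes with a mean of at least 5 normalized molecules, by size of the log2 fold change, or else the 2 most abundant; of those, the text names a part. Likeness used log2 of normalized molecules plus 1 with group means removed.

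Alternatives were edgeR with the size factors of DESeq2, the Wald test of DESeq2, filterByExpr, no filter, a robust fit, a fit to the groups compared only, the replicate number as a block, depth (log2 of all molecules of a library) as a covariate within a cell type and leaving out each library in turn. Adjustment for summed macrophage markers, and leaving out the T cell library of highest macrophage markers in each group, were chosen after the data were seen.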

Additional observations from a re-analysis of the deposited data

Results flagged for a closer look

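Among the 60 combinations of a member and a group, 3 had a library far from the other 5, where chance gives about 1 in 20, that is 3. All were in CD8+ T cells. *Junb* was at 75.8 normalized molecules in *muMt*-/- library 1, where the others spanned 29.0 to 41.9, a gap of 0.724 of the range of the group. *Atf3* was at 28.3 in the same library, where the others spanned 0.833 to 5.34 (gap 0.836). *Dusp1* was at 45.8 in GABA-treated *muMt*-/- library 1, where the others spanned 13.0 to 23.8 (gap 0.671). These 2 libraries had the highest summed macrophage markers of their groups, 488 and 268 normalized molecules, and the part of that RNA was not tested for single libraries.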

How the results depend on the processing

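For *muMt*-/- against WT TAMs 1 member was called, and 3 by DESeq2's Wald test (*Fos*, *Fosb* and *Dusp1*), 3 with filterByExpr, 2 without a filter, 2 with a robust fit and 0 with the log2 number of molecules as covariate. Leaving out 1 library gave 0 to 3, with 0 without WT libraries 1, 2, 3 or 6 or *muMt*-/- libraries 1 to 4, 2 without *muMt*-/- library 6 and 3 without *muMt*-/- library 5. For GABA-treated against untreated *muMt*-/- TAMs 0 were called, and 2 by DESeq2 and 1 without a filter. Between cell types the number ranged from 6 to 8 in WT mice (5 to 7 leaving out 1 library), was 6 in *muMt*-/- mice (5 to 6) and ranged from 6 to 8 with GABA (6 to 7). In CD8+ T cells it was 0 in each alternative. The genes called of the whole table moved more: from 194 to between 11 and 343 for *muMt*-/- against WT TAMs (67 to 231 leaving out 1 library), from 2 to between 2 and 62 for GABA in TAMs, from 7 to between 2 and 63 for GABA-treated against WT TAMs, and from 0 to at most 72, 11 and 64 for the 3 comparisons of T cells. Between cell types they went from 1928 to between 1166 and 2055 in WT mice, from 1810 to between 1219 and 1992 in *muMt*-/- mice and from 1869 to between 1209 and 1988 with GABA, and for the differences from 1 to at most 79 and from 0 to at most 17. The cause was not tested. Replicate numbers were not taken as pairs: the correlation of deviations from group means between libraries of the same number had a median of 0.000763 in TAMs (−0.21 to 0.12), −0.020 in T cells (−0.39 to 0.45) and 0.026 between TAMs and T cells (−0.04 to 0.29), with 2, 6 and 3 of 18 pairs above 0.1. The labels do not say whether TAM and T cell libraries of one number came from the same mouse, and the fit to all 36 libraries took them as independent. Adjusting for macrophage markers and leaving out the libraries where these were highest were chosen after the data were seen, and the depth covariate was not run over all 36 libraries. All 40 alternative values of the median likeness kept their sign. They moved by less than the standard deviation of the pairwise r in their cell type. All 60 alternative values of levels moved by less than 1.5 times.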
